A study of Mus musculus with 34 samples.

Results

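In Beta-TC6, a line of mouse β cells that makes insulin, chromatin immunoprecipitation with sequencing of SIN3A gave 14653 peaks in wild-type cells given Pdx1 siRNA. Of these, 3140 peaks, or 21.4%, had no SIN3A peak of the control siRNA cells within 500 bp and are called new here. The other 11513 peaks of the Pdx1 siRNA list are called shared. In the reverse direction, 1798 of the 13109 peaks of the control siRNA list had no Pdx1 siRNA peak within 500 bp and are called absent, and the rest are called kept. The new peaks were chosen by the SIN3A peak calls, so their number, tag counts and enrichment over input are a description of that choice. Their number was 5021 when only overlapping peaks counted as shared, 1931 with SIN3A lists of equal length and 1747 among peaks at least 8-fold over input. The 10 lists of the series hold 174035 peaks.

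The 10 lists cover 28 immunoprecipitated samples of cells that all received forskolin at 10 µM for 1 h, a cAMP-raising agent used to align circadian phase. SIN3A was measured in wild-type cells with Pdx1 siRNA and in wild-type cells with control siRNA, with 2 immunoprecipitated samples and 1 input each. PDX1 and p65 were measured with 3 samples per group in cells given IL-1β and in control cells, both in wild-type and in Bmal1-/- cells, and none of these 8 groups is labelled with an siRNA. The sources used here give no dose or time of IL-1β, no siRNA sequence and no number of Bmal1-/- clones. No RNA or PDX1 measurement of the siRNA cells was used, so neither the depletion of PDX1 nor the β-cell identity of the cells was checked. Neither Pdx1 nor the insulin genes Ins1 and Ins2 was the gene assigned to a SIN3A peak in either siRNA list.

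Each group has 1 peak list and no value per replicate, so no test between the siRNA groups could be made, and the 95% intervals given (Wilson) cover counting error over peaks only. The Pdx1 siRNA list rests on 35.0 M tags, of which 3.65% lay inside peaks, and the control siRNA list on 31.0 M tags, of which 3.00% did. Both lists required a peak score, a position-adjusted tag count that differs from the deposited tag count, of at least 15, which scaled to 10 M tags is 4.29 in the Pdx1 siRNA list and 4.83 in the control siRNA list. A new peak is therefore a place where the control siRNA list holds no call, not a place shown to lack SIN3A in those cells.

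SIN3A is a scaffold without enzymatic activity that holds the histone deacetylases HDAC1 and HDAC2 and is brought to DNA by sequence-specific factors such as MAX partners and REST. It is known for occupying promoters of active and repressed genes, where deacetylation lowers or tunes transcription. PDX1 is a homeodomain factor that activates insulin and other β-cell genes from promoters and distal enhancers. The p65 protein, RELA, is the subunit of NF-κB that enters the nucleus after IL-1β and activates inflammatory genes.

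The promoters of 5 genes met by new peaks are printed first as examples, chosen after their values were seen. They are a purine synthesis gene under the second highest new peak (Paics), a clock gene (Clock), a gene at a PDX1 peak (Pde4b, a cAMP phosphodiesterase), a neuronal RNA-binding protein gene (Celf3) and a chemokine gene at a p65 peak (Cxcl10). At Clock and Celf3 the new peak lay inside the gene, 1711 and 5803 bp from the nearer gene end. The starts used for Clock and Celf3 thus lie within the gene, not at its end. Each line gives the 250 bases before an annotated start from RefSeq (GRCm38.p6, the assembly of mm10), 5′ to 3′ on the gene's strand, with capitals for the bases inside the new peak.
Paics, chr5:76951052-76951301, plus strand: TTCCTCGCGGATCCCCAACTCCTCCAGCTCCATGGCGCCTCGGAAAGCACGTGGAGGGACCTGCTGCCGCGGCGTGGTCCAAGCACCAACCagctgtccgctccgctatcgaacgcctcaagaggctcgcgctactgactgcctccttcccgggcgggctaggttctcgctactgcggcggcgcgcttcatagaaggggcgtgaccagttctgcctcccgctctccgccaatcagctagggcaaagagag
Clock, chr5:76303503-76303752, minus strand: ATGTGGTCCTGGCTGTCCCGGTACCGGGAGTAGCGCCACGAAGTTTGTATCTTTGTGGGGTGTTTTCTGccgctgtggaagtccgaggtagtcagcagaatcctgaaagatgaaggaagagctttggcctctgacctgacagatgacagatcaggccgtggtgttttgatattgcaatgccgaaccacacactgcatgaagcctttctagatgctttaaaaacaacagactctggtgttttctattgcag
Pde4b, chr4:102589593-102589842, plus strand: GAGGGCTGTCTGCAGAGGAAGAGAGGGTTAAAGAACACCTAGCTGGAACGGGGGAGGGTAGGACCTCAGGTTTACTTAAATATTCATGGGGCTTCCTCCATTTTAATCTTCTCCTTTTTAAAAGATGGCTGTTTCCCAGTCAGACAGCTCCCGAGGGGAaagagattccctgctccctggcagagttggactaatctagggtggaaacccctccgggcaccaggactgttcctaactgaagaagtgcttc
Celf3, chr3:94484077-94484326, plus strand: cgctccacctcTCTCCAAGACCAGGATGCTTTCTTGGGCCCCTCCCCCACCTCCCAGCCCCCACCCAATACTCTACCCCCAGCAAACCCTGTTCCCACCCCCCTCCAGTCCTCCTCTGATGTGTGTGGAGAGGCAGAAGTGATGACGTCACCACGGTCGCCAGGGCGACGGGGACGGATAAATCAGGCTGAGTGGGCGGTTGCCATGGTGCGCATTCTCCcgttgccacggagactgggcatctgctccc
Cxcl10, chr5:92348890-92349139, minus strand: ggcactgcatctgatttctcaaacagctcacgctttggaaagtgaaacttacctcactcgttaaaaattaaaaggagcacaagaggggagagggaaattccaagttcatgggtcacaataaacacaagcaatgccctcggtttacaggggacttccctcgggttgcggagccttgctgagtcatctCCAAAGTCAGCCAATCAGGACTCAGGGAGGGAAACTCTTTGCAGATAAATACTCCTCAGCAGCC

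The new peak covered 91 of the 250 bases at Paics, 69 at Clock, 159 at Pde4b, 209 at Celf3 and 64 at Cxcl10. In these windows 3 motifs were searched on both strands, the E-box CACGTG, which the CLOCK and BMAL1 pair and MYC family factors bind, the cAMP response element TGACGTCA, and an NF-κB pattern, GGGNNTTCC. Paics held 1 E-box starting 203 bases before the start, inside the capitals, and Celf3 held 1 cAMP response element starting 108 bases before the start, also inside the capitals. Pde4b held 2 matches of the NF-κB pattern, 163 bases before the start, inside the capitals, and 48 bases before it, outside them. Cxcl10 held 1 match of that pattern 103 bases before the start, outside the capitals, and the Clock window held none of the 3 motifs. No match overlapped another. The shares of promoters that hold each motif are given with the promoter results.

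The new peaks were low. Their median tag count, normalised by the authors to 10 M tags, was 9.15, with quartiles of 6.58 and 14.3 and a range of 3.72 to 217. It was 15.7 with at least 8-fold enrichment over input in both SIN3A lists. That setting also dropped control siRNA peaks under 8-fold and counted 3709 peaks as new. With the minimum set on the Pdx1 siRNA list only, 1747 peaks were new and their median was 9.15. The shared peaks of the same list had a median of 25.2 tags, with quartiles of 16.9 and 35.7. Of the new peaks 67.8% fell in the lowest of 4 equal parts of the Pdx1 siRNA list by tag count, against 13.3% of the shared peaks. Counted the other way, new peaks made up 58.1%, 18.9%, 6.88% and 1.77% of the 4 parts, lowest part first. The median enrichment over input was 8.84-fold for new and 12.6-fold for shared peaks. At the depth of the control siRNA library, 401 new peaks (12.8%) would have had a score under the minimum of 15, against 3.16% of the whole Pdx1 siRNA list.

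**Figure D1:**
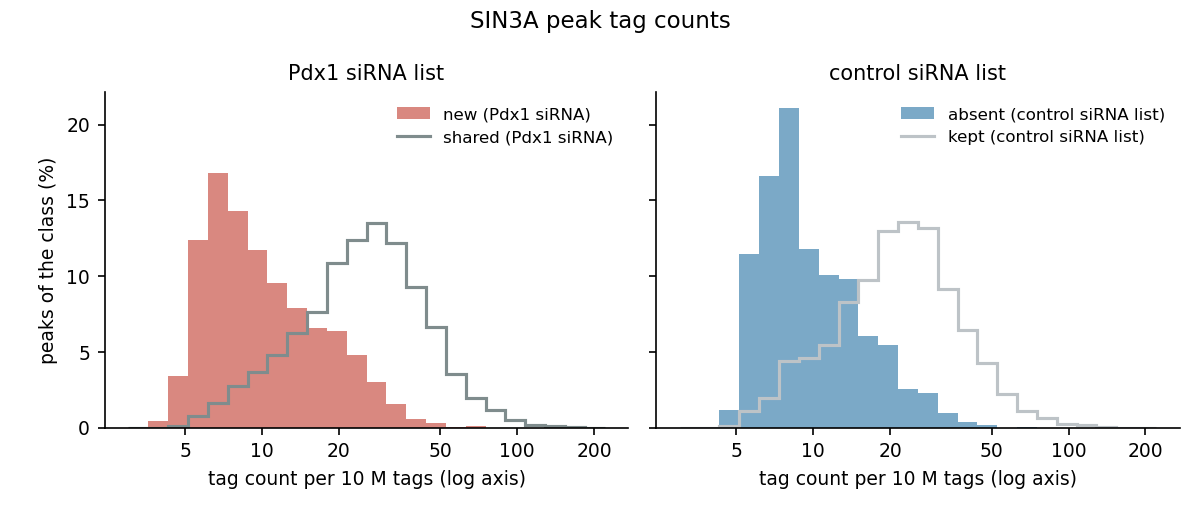
Distribution of tag counts per 10 M tags (log axis) for new and shared peaks of the Pdx1 siRNA list and for absent and kept peaks of the control siRNA list, as the percent of each class in equal log steps. New and absent peaks both sit at the low end, with medians of 9.15 and 8.70, while shared and kept peaks have medians of 25.2 and 21.9.

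The absent peaks of the control siRNA list looked much the same in their own list. They had a median of 8.70 tags, with quartiles of 7.09 and 13.2, against 21.9 tags for kept peaks, and 71.8% of them lay in the lowest of 4 equal parts of their list. They made up 39.4%, 10.9%, 3.36% and 1.25% of the 4 parts of the control siRNA list, lowest part first. Peaks found with only 1 of the siRNAs were thus mostly low peaks in both directions. The main shares of peaks below are therefore given for new peaks beside both shared and absent peaks.

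The distance to the nearest control siRNA peak varied widely. It was over 50 kb, or had no value because the sequence held no control siRNA peak, for 1123 new peaks (35.8%). It was 10 to 50 kb for 1206, 2 to 10 kb for 445, 1 to 2 kb for 93 and under 1 kb for 273. The 105 peaks just inside the limit, with a gap of more than 500 and at most 600 bp, had a median of 20.9 tags, and 72.4% of them lay within 1 kb of a gene end. The 151 peaks just outside it, with a gap of 400 to 500 bp, had a median of 18 tags. Of the 20 highest new peaks, 7 lay within 1 kb of a control siRNA peak, among them the peak at Paics, with a gap of 654 bp. Overlap with PDX1 of wild-type control cells was 5.13% for new peaks with a gap under 1 kb, 24.0% at 10 to 50 kb and 21.6% beyond 50 kb. The share of new peaks per assembled chromosome ran between 18.5% on chromosome 11 and 26.1% on chromosome 13.

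New peaks were less often at gene ends than shared peaks. Measured from the nearer edge of the peak to the nearer end of a protein-coding gene in the RefSeq table, 1115 new peaks, or 35.5% (33.9 to 37.2), lay within 1 kb, against 75.1% (74.3 to 75.9) of shared peaks and 66.6% of the whole Pdx1 siRNA list. The median distance was 5340 bp for new peaks and 202 bp for shared peaks. Another 39.0% of new peaks lay inside a gene beyond 1 kb of a gene end, 17.7% outside genes up to 50 kb away and 7.74%, or 243 peaks, beyond 50 kb, against 18.3%, 5.36% and 1.26% of shared peaks. Absent peaks had a share of 34.2% (32.0 to 36.4) within 1 kb of a gene end and a median distance of 5310 bp, so their interval overlapped that of the new peaks. With at least 8-fold enrichment over input in both SIN3A lists, 56.4% of new peaks lay within 1 kb of a gene end. With that minimum in the Pdx1 siRNA list only, 37.9% did.

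**Figure D2:**
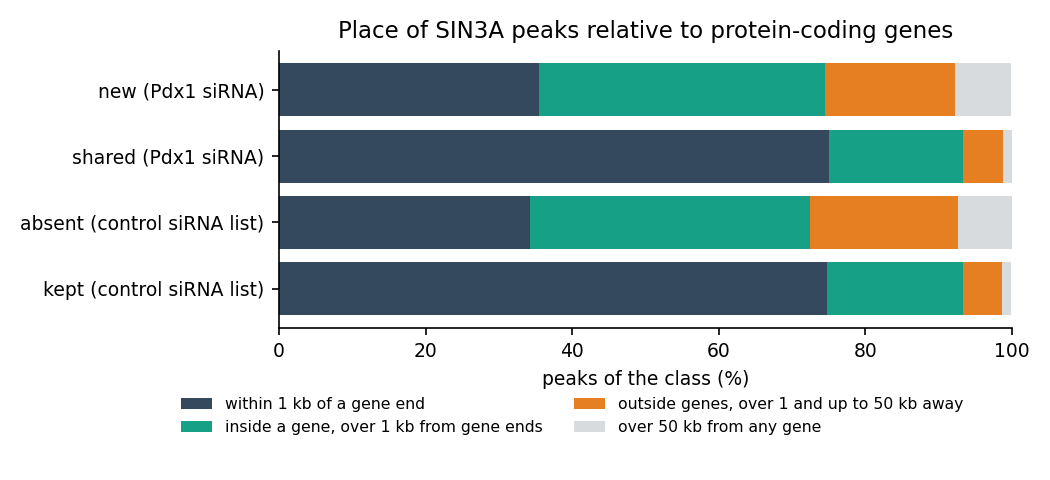
Share of each class of SIN3A peaks (percent of the class) by place relative to protein-coding genes. Within 1 kb of a gene end lay 35.5% of new, 75.1% of shared, 34.2% of absent and 74.8% of kept peaks.

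New peaks overlapped PDX1 peaks more often than shared peaks did. In wild-type control cells 636 new peaks, or 20.3% (18.9 to 21.7), overlapped a PDX1 peak by at least 1 bp, against 506 shared peaks, or 4.40% (4.04 to 4.78), and 7.79% of the whole list. With the PDX1 list of IL-1β cells the share was 20.7% of new and 4.06% of shared peaks, and 7.62% of the whole list. In Bmal1-/- cells, whose PDX1 lists are much shorter, it was 11.2% of new and 1.96% of shared peaks without IL-1β (whole list 3.95%), and 11.1% and 2.12% with IL-1β (whole list 4.03%). All 4 PDX1 lists were met by 191 new peaks (6.08%) and by 0.999% of shared peaks. Absent peaks overlapped PDX1 of wild-type control cells in 19.6% (17.8 to 21.5), or 352 peaks, so the share was not particular to new peaks. The share of new peaks at this PDX1 list was 11.5% with at least 8-fold enrichment over input in both SIN3A lists. It was 18.4% with that minimum in the Pdx1 siRNA list only. It was 11.7% with centres within 100 bp, 12.1% with only PDX1 peaks of at least 8-fold and 30.9% when a gap of up to 500 bp counted.

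The overlap with p65 showed a smaller difference. In wild-type cells with IL-1β, 602 new peaks, or 19.2% (17.8 to 20.6), overlapped a p65 peak, against 11.2% (10.6 to 11.8) of shared peaks, 18.3% (16.6 to 20.2) of absent peaks and 12.9% of the whole list. In Bmal1-/- cells with IL-1β the share was 14.5% of new, 8.92% of shared and 14.2% of absent peaks, and 10.1% of the whole list. Without IL-1β it was 2.87% of new, 1.32% of shared and 3.28% of absent peaks in wild-type cells (whole list 1.65%). In Bmal1-/- cells without IL-1β, where the p65 list has 173 peaks, it was 0.223%, or 7 peaks, of new, 0.217% of shared and 0.222% of absent peaks (whole list 0.218%). Both PDX1 in control cells and p65 with IL-1β were met by 298 new peaks (9.49%), by 1.66% of shared and by 8.06% of absent peaks. The share of new peaks at p65 of wild-type cells with IL-1β was 11.4% with centres within 100 bp, 8.57% with only p65 peaks of at least 8-fold and 31.7% when a gap of up to 500 bp counted. None of the 8 PDX1 and p65 lists was met by 1980 new peaks (63.1%), by 81.0% of shared and by 62.6% of absent peaks.

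**Figure D3:**
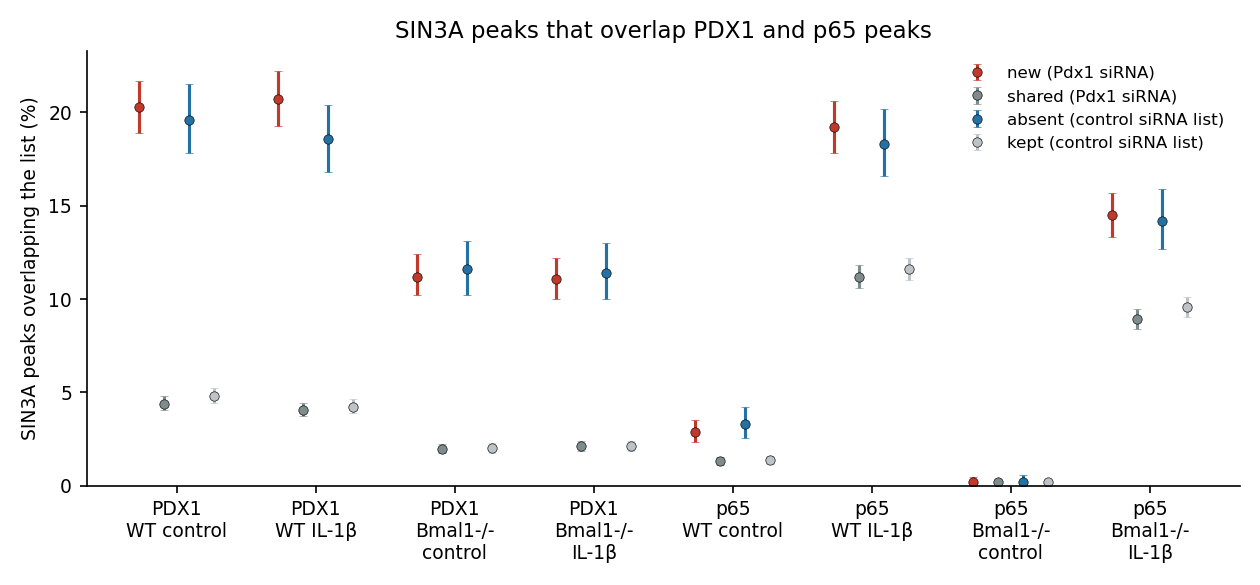
Percent of new, shared, absent and kept SIN3A peaks that overlap a peak of each PDX1 and p65 list by at least 1 bp, with Wilson 95% intervals (counting error only). New and absent peaks lie close together in every list. Both lie above shared and kept peaks, except for p65 of Bmal1-/- cells without IL-1β, where the classes lie close together.

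Tag count and place moved with the overlap. Among peaks in the lowest of 4 equal parts by tag count, 26.3% of new and 14.6% of shared peaks overlapped PDX1 of wild-type control cells, and 24.4% of absent and 13.2% of kept peaks did. Among peaks over 1 kb from a gene end the shares were 29.5% of new, 12.7% of shared, 28.1% of absent and 13.3% of kept peaks. With both restrictions, low peaks away from gene ends, they were 33.1% of new and 24.1% of shared peaks, and 31.7% of absent and 22.3% of kept peaks. Within 1 kb of a gene end they were 3.50% of new, 1.63% of shared, 3.09% of absent and 1.96% of kept peaks. For p65 with IL-1β, the shares away from gene ends were 24.5% of new, 16.9% of shared and 22.3% of absent peaks. Within 1 kb of a gene end these p65 shares were 9.42% of new, 9.28% of shared and 10.6% of absent peaks.

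**Figure D4:**
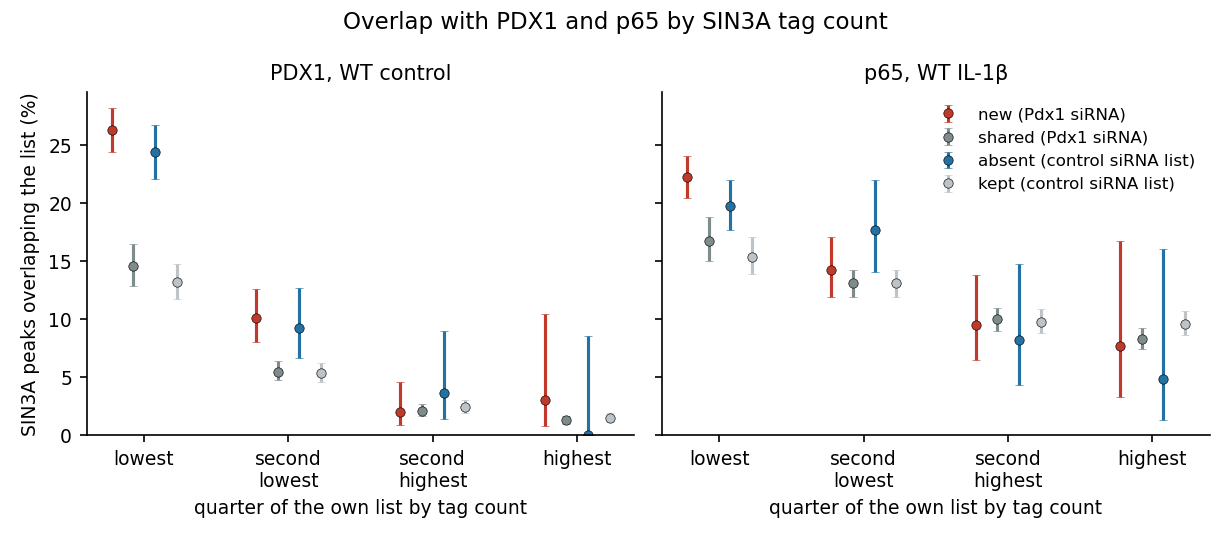
Percent of SIN3A peaks overlapping PDX1 of wild-type control cells (left) and p65 of wild-type cells with IL-1β (right), by 4 equal parts of the peak's own list by tag count, with Wilson 95% intervals. In the lowest part 26.3% of new and 14.6% of shared peaks overlap PDX1, and the highest part holds 65 new and 41 absent peaks.

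The new peaks at PDX1 were lower and more distal than the other new peaks. Their median was 7.43 tags, against 9.72 tags for new peaks without PDX1, and 6.13% of them lay within 1 kb of a gene end, against 43.0%. On the PDX1 side they were strong sites. The 636 PDX1 peaks met by a new peak are 1.59% of the 40028 PDX1 peaks of wild-type control cells, and 69.8% of them belong to the highest of 4 equal parts by PDX1 tag count. Their median was 20.9 PDX1 tags, against 8.14 for the whole PDX1 list, and PDX1 peaks met by absent SIN3A peaks had a median of 20.6. PDX1 peaks met by shared SIN3A peaks had a median of 15.8, with 54.5% of them in the highest part.

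Of the 20 highest new peaks, none overlapped a PDX1 peak of wild-type cells and 2 overlapped a p65 peak with IL-1β. The highest, 217.3 tags, lay on an unplaced sequence with 86 input tags and an enrichment of 4.34-fold, near the minimum of 4. The next lay inside Ppat and within 1 kb of Paics (chr5:76950934-76951142), neighbouring genes of purine synthesis, with 73.8 tags and 21.1-fold enrichment. It was followed by Setd1b, a histone H3K4 methyltransferase gene (chr5:123144360-123144568, 66.1 tags), Wee1, which encodes a kinase that holds cells before mitosis (62.9 tags, 602 bp from a control siRNA peak), and a peak near Tnpo2, a nuclear import receptor gene (55.8 tags). Tm2d2 had 50.6 tags, Ttc9c 48.9, Srsf7, a splicing factor gene, 47.8, and Alg2, a glycosylation enzyme gene, 45.2, all between 554 and 876 bp from a control siRNA peak. Arid1a, a subunit gene of the SWI/SNF remodelling complex, had 44.3 tags and lay 24200 bp from the nearest control siRNA peak. Atp2a2, the endoplasmic reticulum calcium pump gene, had 44.0 tags 112 bp from its gene end and 56336 bp from the nearest control siRNA peak. The rest were at Fanca, Pdp1, Kdm6b, Aida and Dad1, with 43.8, 42.6, 40.9, 40.6 and 40.3 tags. Those at Pdp1 and Kdm6b lay 545 and 1804 bp from control siRNA peaks of 43.2 and 48.6 tags.

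A single new peak inside Deptor, the gene of an mTOR-binding inhibitor, had 49.8 tags, 171-fold over input and 83.6-fold over the surrounding 10 kb. Its input of 0.5 tags was the lowest value among new peaks, a floor, so the peak's 171-fold is not a measured ratio. Its focus ratio, the share of tags placed as a single narrow peak would have them, was 0.994, against 0.463 to 0.844 for the other peaks printed by name among the highest new peaks and the highest at PDX1 or p65. It lay 48287 bp from the nearer end of Deptor and overlapped no PDX1 or p65 peak of wild-type cells, but it did overlap a peak of both PDX1 lists and of the p65 list with IL-1β of Bmal1-/- cells.

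Another 3 of the 20 lay at the metallothionein genes, which encode small zinc-binding and cadmium-binding proteins induced by metals and stress. They were at Mt1, with 50.3 tags (chr8:94179189-94179397) and 44.3 tags (chr8:94180043-94180251), and at Mt2, with 45.5 tags (chr8:94172651-94172859). Their enrichment over input was 5.40, 5.44 and 7.81-fold, with 16, 14 and 10 input tags, well above the median of 2 input tags for new peaks. The nearest control siRNA peak, at Mt3 with 11.3 tags, was 19798 to 27190 bp away, and a shared peak of 13.4 tags lay beside it in the Pdx1 siRNA list. The p65 list with IL-1β had a peak of 109 tags just before Mt2 and a peak of 22.6 tags at the start of Mt1, neither overlapping a new peak.

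**Figure D5:**
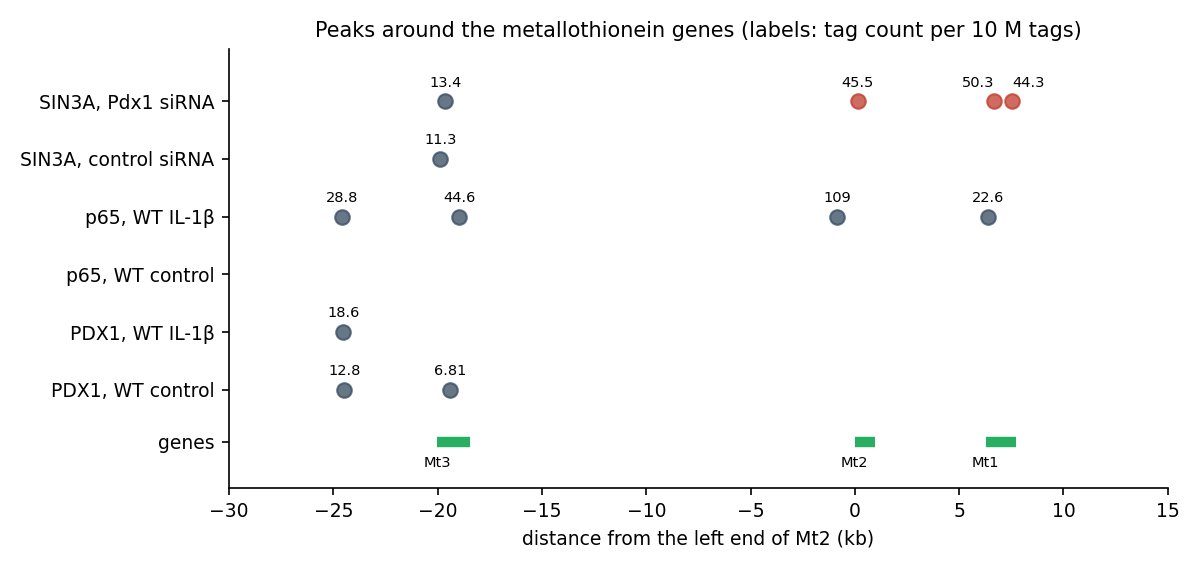
Peaks of the SIN3A lists and of the wild-type p65 and PDX1 lists around Mt3, Mt2 and Mt1, by distance from the left end of Mt2 in kb. Points are peak centres labelled with their tag count per 10 M tags, and the red points are the 3 new SIN3A peaks at Mt2 and Mt1.

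The 250 bases before the start of Mt2 are shown because the new peak begins 33 bases after that start, with capitals for matches to the metal response core in its forms TGCACNC and TGCGCNC, on either strand.
Mt2, chr8:94172368-94172617, plus strand: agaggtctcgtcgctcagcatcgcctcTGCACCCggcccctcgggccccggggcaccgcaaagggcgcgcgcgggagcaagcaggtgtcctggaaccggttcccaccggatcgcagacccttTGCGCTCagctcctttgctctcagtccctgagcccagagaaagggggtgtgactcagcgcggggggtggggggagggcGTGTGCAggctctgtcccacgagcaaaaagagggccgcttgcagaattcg
The 3 matches start 223, 128 and 50 bases before the start, and none lies inside the SIN3A peak. Among all 21263 promoter windows of protein-coding genes, which also take in 50 bases after the start, 12.6% hold the first form and 19.6% the second. The first form is in 15.0% of windows met by new, 12.4% by shared and 16.7% by absent peaks. For the second form these shares are 30.1%, 32.6% and 27.5%.

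The highest new peak at a PDX1 peak was at Cdk2ap2, a cell cycle regulator gene, with 39.7 SIN3A tags and 30.4 PDX1 tags in wild-type control cells. The next had 34.0 tags at Tdrkh, 28.6 at Cog1, a Golgi trafficking gene, 28.3 at Mbnl2, a splicing regulator gene, 27.2 at the histone gene H4c14 and 26.9 at BC005537. Cacna1c, the L-type calcium channel gene through which glucose triggers insulin release, had 23.4 tags, and Ubr4 and a further peak at Cog1 had 21.2 each. The peaks at Mbnl2, H4c14, BC005537 and Cacna1c lay 634, 767, 884 and 1020 bp from a control siRNA peak. Ece1, which encodes an endothelin-converting enzyme, had 21.4 tags and the highest PDX1 signal of the 10, 97.5 tags without and 117.9 tags with IL-1β. The PDX1 signal of the 10 ran between 8.31 and 97.5 tags, and SIN3A and PDX1 heights in this group did not follow the same order.

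Among new peaks at p65 with IL-1β, the 10 highest were at Setd1b (66.1 tags), Kdm6b (40.9), Atf2 (34.9), Gm40363 (33.7), Tmem202 (33.2), Tmbim6 and Trim67 (30.0 each), Cdk12 (29.7), Degs1 (29.2) and Cog1 (28.6). The peaks at Atf2, Cdk12 and Trim67 lay 571, 609 and 931 bp from a control siRNA peak. Kdm6b encodes a histone H3K27 demethylase and Atf2 a stress-responsive leucine zipper factor. The p65 tag counts there ran between 7.10 at Tmem202 and 71.4 at Trim67, with 49.5 at Setd1b and 51.7 at Kdm6b, and none of the 10 overlapped a p65 peak of wild-type cells without IL-1β.

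By gene, 2897 new peaks could be assigned to the nearest protein-coding gene within 50 kb, and they fell on 2465 genes, 11.3% of 21887 protein-coding genes and 23.0% of the 10697 genes with any Pdx1 siRNA peak. Of these, 1132 genes, 5.17% of all, had no control siRNA peak assigned to them, and 1333 had both. Most, 2113 genes, had 1 new peak, 299 had 2 and 53 had 3 or more. Each peak was assigned to a single gene, and a gene said to have a peak, here and below, can lie up to 50 kb from it. A gene given as without a control siRNA peak, here and below, can therefore lie near such a peak assigned to a neighbour. Absent peaks fell on 1480 genes, of 21887 genes in all and 10142 with any control siRNA peak. Both a new and an absent peak were found at 333 genes. Genes with a new peak were longer, with a median of 37.9 kb against 25.6 kb for genes with any Pdx1 siRNA peak and 17.2 kb for all genes, and those with 3 or more new peaks had a median of 190 kb.

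The genes with the most new peaks were mostly long genes with scattered low peaks. Maml3, a Notch coactivator gene, had 8 new peaks of 6.0 to 11.4 tags, Celf4, a neuronal RNA-binding protein gene, had 7 of 5.72 to 22.6 tags, and Foxn3, a forkhead repressor gene, had 6 of 5.15 to 12.9 tags. Cacna1c had 5 new peaks of 7.15 to 23.4 tags, of which 4 overlapped PDX1 of wild-type control cells with 11 to 31.4 PDX1 tags and 3 overlapped p65 with IL-1β. Nav1 and Septin9 also had 5, and Foxp1, Snx9 and Ccdc162 had 4. Sirt1, the gene of an NAD-dependent deacetylase, had 5 new peaks of 12.6 to 22.9 tags, 6998 to 16568 bp from the nearest control siRNA peak, and none of them overlapped PDX1 of wild-type control cells or p65 with IL-1β.

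Genes of insulin production and secretion, many of which PDX1 is known to regulate, carried new peaks at 10 of 32 genes (31.2%), against 11.3% of all genes. Of their 15 new peaks 9 overlapped PDX1 of wild-type control cells, against 20.3% of all new peaks and 29.5% of new peaks over 1 kb from a gene end. Besides Cacna1c these 9 included 2 peaks at Abcc8, a subunit gene of the ATP-sensitive potassium channel, with 12.3 and 9.44 SIN3A tags and 23.9 and 39.9 PDX1 tags. They also included Cpe, a prohormone-processing enzyme gene, Scg5 and Rab27a, a granule docking gene, each with 6.0 to 7.15 SIN3A tags and 19.6 to 38.4 PDX1 tags. The SIN3A peaks in this list were mostly low, with a median of 8.86 tags. Higher ones without PDX1 lay at G6pc2, the islet glucose-6-phosphatase gene, with 27.5 tags and no control siRNA peak at the gene, and at Snap25, a membrane fusion protein gene, with 25.7 tags. Stx1a, its partner in exocytosis, had 12.0 tags, also with no control siRNA peak. Absent peaks also lay at 10 of these 32 genes, against 1480 of all 21887 genes. Among the 23 genes of the list with any Pdx1 siRNA peak, 43.5% had a new peak, against 23.0% of all genes with such a peak.

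Genes of β-cell transcription factors had new peaks at 7 of 23 (30.4%), against 11.3% of all genes, and at 41.2% of those with any Pdx1 siRNA peak, against 23.0% of all such genes. Of their 11 new peaks 1 overlapped PDX1 of wild-type control cells, where 20.3% of all new peaks did. Absent peaks lay at 5 of these 23 genes, against 1480 of all 21887 genes. St18, a zinc finger factor gene, had 3 new peaks of 8.29, 14.6 and 5.72 tags. Isl1 had 13.7 tags, Mlxipl, the glucose-responsive factor ChREBP, 11.2 tags beside 181.4 p65 tags, and Rfx3 9.15 tags beside 21.1 PDX1 tags. Foxa1 (5.43 tags) and Pax4 (7.43 tags) had no control siRNA peak. Other islet genes with a new peak were Irx2, Sst and Ttr, 3 of 12 and of the 4 with any Pdx1 siRNA peak, at 7.72 to 11.4 tags. The peaks assigned to Sst and Ttr lay outside these genes, 46869 and 22392 bp away. Genes normally silent in β cells or used by progenitors had new peaks at 4 of 17 and of the 10 with any Pdx1 siRNA peak, Hes1 with 25.2, Oat with 9.44, Rest with 9.15 and Gast with 8.01 tags. The peaks assigned to Oat, Rest and Gast lay outside these genes, 5640, 19393 and 3709 bp away.

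Circadian clock genes had new peaks at 8 of 24 (33.3%), against 11.3% of all genes, and at 38.1% of those with any Pdx1 siRNA peak, against 23.0% of all such genes. They held 12 new peaks with none at PDX1 of wild-type control cells, where 20.3% of all new peaks lay. The highest lay at Clock, the partner of BMAL1, with 32.3 tags and 546 bp from a control siRNA peak. Hlf, a gene of a clock-controlled leucine zipper factor, had 15.4 and 15.7 tags. The peak of 15.4 tags lay 869 bp from a control siRNA peak, and the peak of 15.7 tags lay 27152 bp outside the gene. Nfil3, a repressor of clock-controlled genes, had 13.7 tags and was the only one of the 8 without a control siRNA peak. Cry2, Per3 and Csnk1d had 5.72 to 12.0 tags. Absent peaks lay at 3 of the 24 clock genes, against 1480 of all 21887 genes.

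NF-κB pathway genes had new peaks at 7 of 36 (19.4%), and at 24.1% of those with any Pdx1 siRNA peak, near the 23.0% of all such genes. Of their 8 new peaks 3 overlapped p65 with IL-1β, where 19.2% of all new peaks did. Absent peaks lay at 4 of these 36 genes, against 1480 of all 21887 genes. Tnip1, a feedback inhibitor gene, had 26.0 SIN3A tags beside 274.6 p65 tags, and Il1r1, the IL-1 receptor gene, had 7.43 SIN3A tags beside 34.1 PDX1 tags and 55.7 p65 tags. Myd88, the receptor's adaptor gene, had 10.3 tags with no control siRNA peak assigned to it, but such a peak lay 1467 bp away. Tab2 had 26.0 tags, Nfkbia, the inhibitor IκBα, 18.9 and 7.43, Bcl3 9.44 and Irak1 6.0 tags. Both Nfkbia peaks lay outside that gene, 23737 and 6344 bp away, and the Irak1 peak lay 14214 bp outside Irak1. The peaks of 26.0 tags at Tab2, 18.9 at Nfkbia and 9.44 at Bcl3 lay 564, 912 and 842 bp from a control siRNA peak. Cytokines and chemokines had new peaks at 2 of 24 and of the 3 with any Pdx1 siRNA peak, Il33 with 9.72 tags and Cxcl10 with 6.0 tags beside 7.31 PDX1 tags and 289.2 p65 tags.

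Genes of the SIN3 and HDAC complexes had new peaks at 3 of 27 (11.1%), near the 11.3% of all genes, and at 11.5% of those with any Pdx1 siRNA peak, against 23.0% of all such genes. They were at Hdac1, with 20.9 tags 29 bp from its gene end and no control siRNA peak, at Mxi1, a MAX partner that recruits SIN3, with 34.6 and 9.72 tags, and at Rbbp7 with 9.15 and 5.72 tags. The Rbbp7 peak of 9.15 tags lay 24779 bp outside the gene. Immediate early genes had new peaks at 4 of 19 (21.1%), and at 25% of those with any Pdx1 siRNA peak. Among them Jun (28.3 and 6.29 tags) and Ier3 (19.4 and 14.3 tags) had no control siRNA peak. The Jun peak of 6.29 tags lay 25320 bp outside the gene. Jund had 34.9 tags, 870 bp from a control siRNA peak, and Klf4 had 5.72 tags, 9125 bp outside the gene. Stress and apoptosis genes had new peaks at 3 of 25 (12.0%), and at 12.5% of those with any Pdx1 siRNA peak. Bbc3 had 19.2, Cdkn1a 15.7 and Eif2ak3 6.86 to 10.6 tags. The Bbc3 peak lay 8286 bp outside Bbc3, and the Eif2ak3 peak of 6.86 tags lay 19676 bp outside Eif2ak3. Cell cycle genes had new peaks at 4 of 24 (16.7%), and at 19.0% of those with any Pdx1 siRNA peak. Rb1 had 26.3 tags, 669 bp from a control siRNA peak, and Cdk6, Cdkn1c and Mki67 had 4.86 to 5.72 tags. The Mki67 peak lay 19807 bp outside the gene. Absent peaks lay at 3 of 27 genes of the SIN3 and HDAC list, 1 of 19 immediate early genes, 0 of 25 stress and apoptosis genes and 3 of 24 cell cycle genes. Among all 21887 genes, 1480 had an absent peak.

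Neuronal genes had new peaks at 9 of 20 (45.0%), against 11.3% of all genes, and at 50% of those with any Pdx1 siRNA peak, against 23.0% of all such genes. Their median length, 84.8 kb, was the greatest of the 13 lists, and 7 of the 20 had an absent peak, against 1480 of all 21887 genes. Their 18 new peaks had a median of 7.15 tags, and 7 of the 9 genes' peaks stayed under 15 tags, the exceptions being Celf4 (22.6) and Elavl4 (25.4). The Celf4 peak of 22.6 tags lay 819 bp from a control siRNA peak. Stmn2, Gap43 and Dcx had no control siRNA peak, with 2 new peaks each of 4.86 to 8.58 tags. The Dcx peak of 7.15 tags lay 32909 bp outside the gene. Genes of other lineages, blood, vessel, exocrine and others, had a new peak at 1 of 20 and of the 3 with any Pdx1 siRNA peak, Pecam1, with 6.58 tags beside 432.8 p65 tags. The part of gene length in these shares was not tested.

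At promoters, 474 new peaks overlapped a window of 250 bases before to 50 bases after an annotated start, and these 525 windows belong to 486 genes. The windows had a median of 61.7% G or C and 20 CpG dinucleotides, against 63.7% and 25 in windows met by shared peaks, 63.0% and 21 in those met by absent peaks, 52.3% and 6 in windows with no SIN3A peak and 56.3% and 13 in all windows. The E-box CACGTG was in 8.19% of windows met by new peaks (6.14 to 10.9), against 13.2% for shared, 7.67% for absent and 7.84% for all windows. The cAMP response element was in 3.05% of windows met by new peaks, 4.07% for shared, 2.44% for absent and 2.23% for all windows. The NF-κB pattern was in 5.90% of windows met by new peaks, 8.11% for shared, 5.57% for absent and 6.30% for all windows. The homeodomain core TAATTA was in 2.29% of windows met by new peaks (1.31 to 3.95), 1.57% for shared, 2.44% for absent and 4.53% for all windows.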

How the data were processed

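The samples are Beta-TC6 cells, and the 10 peak lists used are HOMER findPeaks lists deposited by the authors, 1 per group, whose headers do not state if replicates had been pooled. Per the file headers, a peak had to pass a false discovery rate of 0.001, to exceed input 4-fold with a p-value of 0.0001 and to exceed the surrounding 10 kb 4-fold, with 100 bp fragments and clonal tags limited to 2-fold. The signal used is the deposited tag count per 10 M tags. The score is the authors' position-adjusted tag count, the fold over input or local signal is a deposited ratio, and the focus ratio is a deposited fraction. The submitters' processing notes name Bowtie2, HOMER and mm10, without alignment settings. For PDX1 with IL-1β the sample titles name PDX1 and the antibody field names p65; the titles were followed.

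Peaks were compared with Python 3.11.15 (pandas 2.3.3, numpy 2.4.6). New means a gap over 500 bp, edge to edge, to the nearest peak of the other SIN3A list, and overlap with PDX1 or p65 means at least 1 bp. Genes are the RefSeq protein-coding genes of GRCm38.p6, the nearest body within 50 kb being assigned; the gene table gives no strand, so distances are to either gene end. Promoter windows covered 17492 of 21887 genes, and Fam60a repeated a listed gene, leaving 303 of 304 listed genes matched. The interval functions were tested on simulated peaks with planted gaps. Depth is given with the results. The definition of new peaks, the 13 gene lists and the alternatives were chosen with earlier results of these data known. Named genes are those of the 20 highest new peaks, the 10 highest at PDX1 of wild-type control cells and at p65 of wild-type IL-1β cells, the 10 with most new peaks (at least 3) and listed genes with a new peak; Pde4b was chosen after its values were seen, as were the promoters printed. Some listed genes with a new peak are counted but not reported here by name.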

Additional observations from a re-analysis of the deposited data

How the results depend on the processing

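Each list is 1 group, so a replicate could not be left out. No paired analysis was possible because the lists hold no value per replicate. Of 41 alternatives, 5 left a value within the counting interval, or a count within 1.5 times, of the one reported. Counting only overlapping peaks as shared gave 5021 new peaks with a median of 12.0 tags, 49.2% at gene ends, 14.2% at PDX1, 15.9% at p65 and 26.5% of control siRNA peaks absent. A gap over 2000 bp gave a median of 8.43 tags, 32.4% at gene ends, 22.0% at PDX1 and 11.9% absent. Lists of equal length gave 1931 new peaks with 12.6 tags, 46.0% at gene ends, 15.3% at PDX1, 17.0% at p65 and 16.1% absent, and then 2117 peaks were absent, more than were new. At least 8-fold over input in both lists gave 3709 new peaks with 15.7 tags, 56.4% at gene ends, 11.5% at PDX1, 14.2% at p65 and 29.2% absent. The same minimum in the list examined only gave 1747 new peaks, 37.9% at gene ends, 18.4% at PDX1, 17.1% at p65 and 11.4% absent. Centres within 100 bp gave 11.7% at PDX1 and 11.4% at p65, a gap of at most 500 bp 30.9% and 31.7%, second lists of at least 8-fold 12.1% and 8.57%, and p65 without IL-1β 2.87%. Gene ends within 500 bp gave 28.5%, within 5 kb 49.3%, and those of all genes 42.8%. The cause of these moves was not tested. Under the 5 settings of the SIN3A lists, new peaks overlapped PDX1 in 11.5% to 22.0%, shared peaks in 2.59% to 4.47% and absent peaks in 12.2% to 22.0%. The depth is 35.0 M tags with Pdx1 siRNA and 31.0 M tags with control siRNA, and a call needs a score of 15 in each.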
